A study of Solanum lycopersicum with 4 samples.

Results

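The genes described here are those whose transcripts were raised in both RNA sequencing libraries of miR156-overexpressing tomato (Solanum lycopersicum), labelled 156OE, relative to both libraries labelled MT, the abbreviation commonly used for Micro-Tom. A gene was taken when its level was at least 10 CPM (counts per 1000000 assigned reads) in both 156OE libraries and the lower 156OE value was at least 2 times the higher MT value. Of 33976 genes, 12161 reached 10 CPM in both 156OE libraries and 57 of these met the rule, a share of 0.469%, or 0.168% of all genes. With up to 300 genes allowed, none was dropped.

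RNA came from floral apices and flower buds that were still closed, with 2 libraries from 156OE and 2 from MT. Both genotypes were sampled from the same tissue, no other treatment is labelled, and the sources used here give neither plant age nor the promoter of the miR156 transgene. The labels speak of RNA replicates and not of separate plants, so the spread between libraries may be technical. The study compares miR156-overexpressing plants with the wild type.

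MicroRNA miR156 represses transcription factors of the SBP-box family, which in plants promote the passage from juvenile to adult growth and take part in the shaping of the inflorescence and the fruit. None of the named members below is an SBP-box gene. Several classes of protein recur among the names. Aquaporins, with 4 members, are channels for water in plasma and vacuolar membranes. On the path from sterols to the bitter steroidal glycoalkaloids of tomato, the sterol and the glycoalkaloid list held 1 member each. Proteins whose genes respond to jasmonate, the hormone of wounding that also acts in stamens and other flower organs, had 5. Proteins of drying seeds or drought had 2. Of the 57 members 40 have no name here, and 12 of the 17 names were added after values were seen. These classes therefore partly reflect which names were sought.

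The libraries held 8440384 and 1685657 assigned reads in 156OE, against 11203505 and 9369713 in MT. The floor of 10 CPM corresponds to 84.4 and 16.9 reads in 156OE. The 156OE libraries differed from each other beyond sampling noise, with a chi-square 19.95 times its degrees of freedom, against 3.97 times for the MT libraries. The level of miR156 itself was not analysed here. SBP3 (Solyc10g009080), of the known target family, had 8.29 and 2.37 CPM in 156OE, against 28.3 and 23.2 CPM in MT, so the pairs did not overlap. CNR (Solyc02g077920), the other SBP-box gene examined, had 4.74 and 0 CPM in 156OE, against 4.73 and 6.62 CPM in MT, and overlapped by a narrow margin. Genes of floral tissue were present in each library: the meristem gene WUS had 13.3 and 13.6 CPM in 156OE and 17.7 and 12.8 CPM in MT. The C-class floral organ gene AG1 had 22.8 and 2.97 CPM in 156OE and 10.99 and 12.1 CPM in MT, so the 156OE pair stood on either side of MT. The same held for AP3 (Solyc04g081000), at 39.1 and 3.56 CPM in 156OE and 13.1 and 17.7 CPM in MT. It also held for TM5 (Solyc05g015750), at 91.4 and 33.2 CPM in 156OE and 54.7 and 59.4 CPM in MT. Summed over the 4 floral tissue genes, the level was 167 and 53.4 CPM in 156OE and 96.5 and 102 CPM in MT.

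Since the rule used the levels in all 4 libraries, the differences between 156OE and MT below are a description, without a test. The ratio of the lower 156OE to the higher MT value had a median of 2.67 over the 57 members and ran between 2.03 and 10.1. It was under 2.5 in 28 members and at least 5 in 15. The 3 members just inside the ratio had 2.03, 2.06 and 2.08, and the 3 genes just outside had 1.98, 1.95 and 1.95. The 3 members nearest the floor had 10.1, 10.7 and 10.7 CPM in their lower 156OE library, and the 3 genes just under it had 9.97, 9.95 and 9.49 CPM. In all, the members took 0.527% and 0.608% of the assigned reads in 156OE and 0.171% in each MT library.

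**Figure D1:**
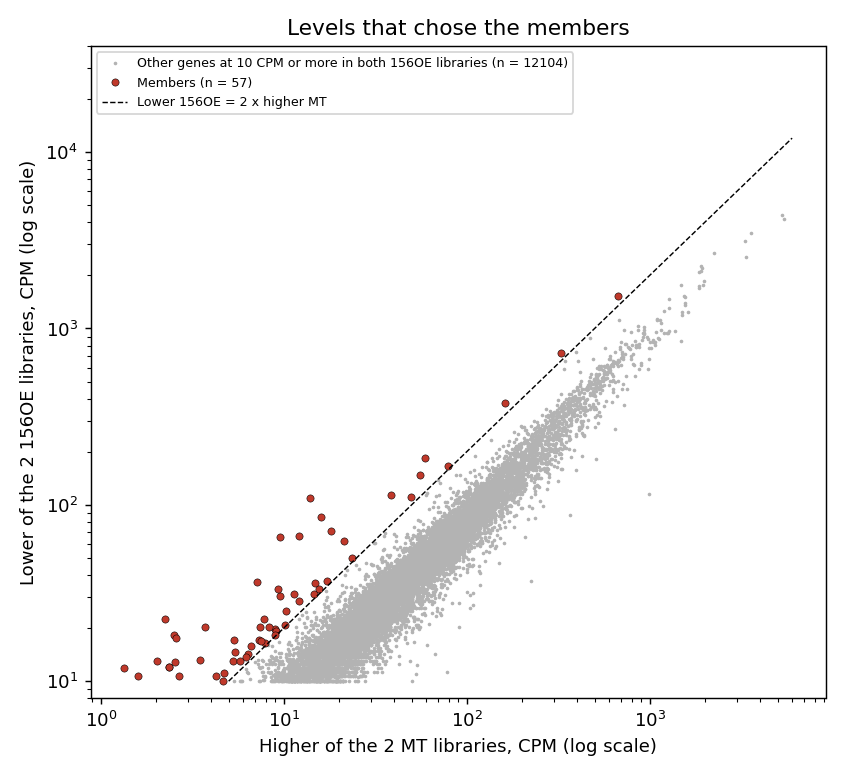
Each point is 1 of the 12161 genes at 10 CPM or more in both 156OE libraries, with the lower of the 2 156OE values on the vertical axis and the higher of the 2 MT values on the horizontal axis, both in CPM on log scales. The 57 members lie on or above the dashed line where the lower 156OE value is 2 times the higher MT value, and most of them lie at the low end of the MT axis.

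The members could be named in part. A symbol fitted the place of 17 of the 57 IDs, and the remaining 40 have no name here. For 5 of the 17, at the places of PIP2-1, PIIF and CEVI57, the symbol fits several IDs and cannot be assigned to 1 of them. Names were recalled and placed against the RefSeq gene table, so they are less certain than the IDs. Of the 17 names, 12 were added after the values had been seen, and so a count of members on a list partly reflects which names were sought. In bulk RNA a lower level from fewer cells of a type and one from less RNA per cell cannot be told apart, and the same holds for higher levels.

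Of the 10 aquaporin IDs that could be named, 4 were members, where 0.364% of the 13169 genes averaging at least 10 CPM met the rule. PIP1-7 (Solyc03g096290), a plasma membrane aquaporin gene, had 221 and 84.8 CPM in 156OE, against 15.6 and 15.9 CPM in MT, a ratio of means of 9.71. TIP (Solyc06g060760), for a channel of the vacuolar membrane, had 84.1 and 13.1 CPM in 156OE, against 0.803 and 2.03 CPM in MT. In both genes 156OE replicate 1 was the higher of the pair, and every 156OE value lay above every MT value, as the rule requires.

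The other 2 aquaporin members were next to each other in ID order, Solyc09g007760 and Solyc09g007770, at the place of PIP2-1, another plasma membrane aquaporin gene. Solyc09g007760 had 185 and 254 CPM in 156OE, against 58.8 and 56.6 CPM in MT, and Solyc09g007770 had 62.7 and 99.7 CPM in 156OE, against 18.6 and 21.2 CPM in MT. Here 156OE replicate 2 was the higher library, and the ratios of means were 3.80 and 4.07. Per length, the pair had 220 and 293 TPM and 65.5 and 101 TPM in 156OE, against 72.3 and 70.8 TPM and 20.2 and 23.4 TPM in MT.

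The remaining 6 aquaporin genes did not meet the rule. PIP2-7 (Solyc01g111660) was higher in both 156OE libraries by a small margin, at 488 and 463 CPM, against 403 and 394 CPM in MT. PIP2-4 (Solyc06g011350), at 12.5 and 2.97 CPM in 156OE and 1.34 and 1.28 CPM in MT, had a ratio of means of 5.89 but missed the floor in 156OE replicate 2. The rest, PIP2-9, PIP2-6, PIP1-3 and TIP2-2, had 156OE values that overlapped those of MT. The list was written after values were seen. Among its 9 genes averaging at least 10 CPM, 5 had both 156OE libraries above both MT libraries, where 15.3% of the 13169 genes at that level did.

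Steroidal glycoalkaloids are made from cholesterol by enzymes known as GAME. GAME11 (Solyc07g043420), a dioxygenase of this path, had the highest level of any member per length. It had 1252 and 1341 TPM in 156OE and 490 and 579 TPM in MT. In CPM it stood at 1518 and 1674 in 156OE, against 572 and 668 in MT, a ratio of means of 2.57. The 156OE libraries were close to each other, 1.103 times apart.

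The other GAME genes were below the ratio of 2 but mostly in the same direction. GAME12 (Solyc12g006470), an aminotransferase gene, had 600 and 590 CPM in 156OE and 270 and 342 CPM in MT. GAME18 (Solyc07g043500), for a glycosyltransferase, had 111 and 81.6 CPM in 156OE and 43.9 and 53.9 CPM in MT. GAME6 (Solyc07g043460), for a cytochrome P450, had 318 and 279 CPM in 156OE and 178 and 197 CPM in MT. Of the 8 genes on the list, 6 had both 156OE libraries above both MT libraries and 0 below. Of the 13169 genes averaging at least 10 CPM, 15.3% were above and 31.4% below. GAME17 (Solyc07g043480), a glycosyltransferase gene, at 436 and 356 CPM in 156OE and 336 and 359 CPM in MT, overlapped. So did the regulator gene JRE4 (Solyc01g090340), at 43.2 and 18.4 CPM in 156OE and 31.0 and 20.1 CPM in MT. The median log2 ratio of the list was 0.59, where the median of all 13169 genes was -0.08.

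Upstream, C5-SD (Solyc02g086180), which encodes a sterol C-5 desaturase, was a member. It had 190 and 166 CPM in 156OE, against 77.5 and 78.6 CPM in MT, a ratio of means of 2.28. SMO4 (Solyc06g005750), for a sterol methyl oxidase, was just short of the rule, at 114 and 131 CPM in 156OE and 59.7 and 58.5 CPM in MT, a ratio of 1.91 between the nearest libraries. The HMGR gene (Solyc02g082260), for the reductase that feeds the whole path, had 564 and 603 CPM in 156OE and 385 and 417 CPM in MT. Of the 13 sterol genes, a list also written after values were seen, 11 had both 156OE libraries above both MT libraries. Of the 13169 genes averaging at least 10 CPM, 15.3% did. Some of the 11 were above by a small margin, with ratios between the nearest libraries of 1.07 in CAS1 (Solyc04g070980) and 1.08 in CPI (Solyc12g098640). The exceptions, HMG2 and SMO1, had both below in CPM and overlapped MT on TMM-scaled CPM: HMG2 (Solyc02g038740) had 26.7 and 27.9 CPM in 156OE and 30.5 and 30.9 CPM in MT, and SMO1 (Solyc08g079570) 46.6 and 42.1 CPM in 156OE and 49.5 and 46.8 CPM in MT. The median log2 ratio of the sterol list was 0.35.

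**Figure D2:**
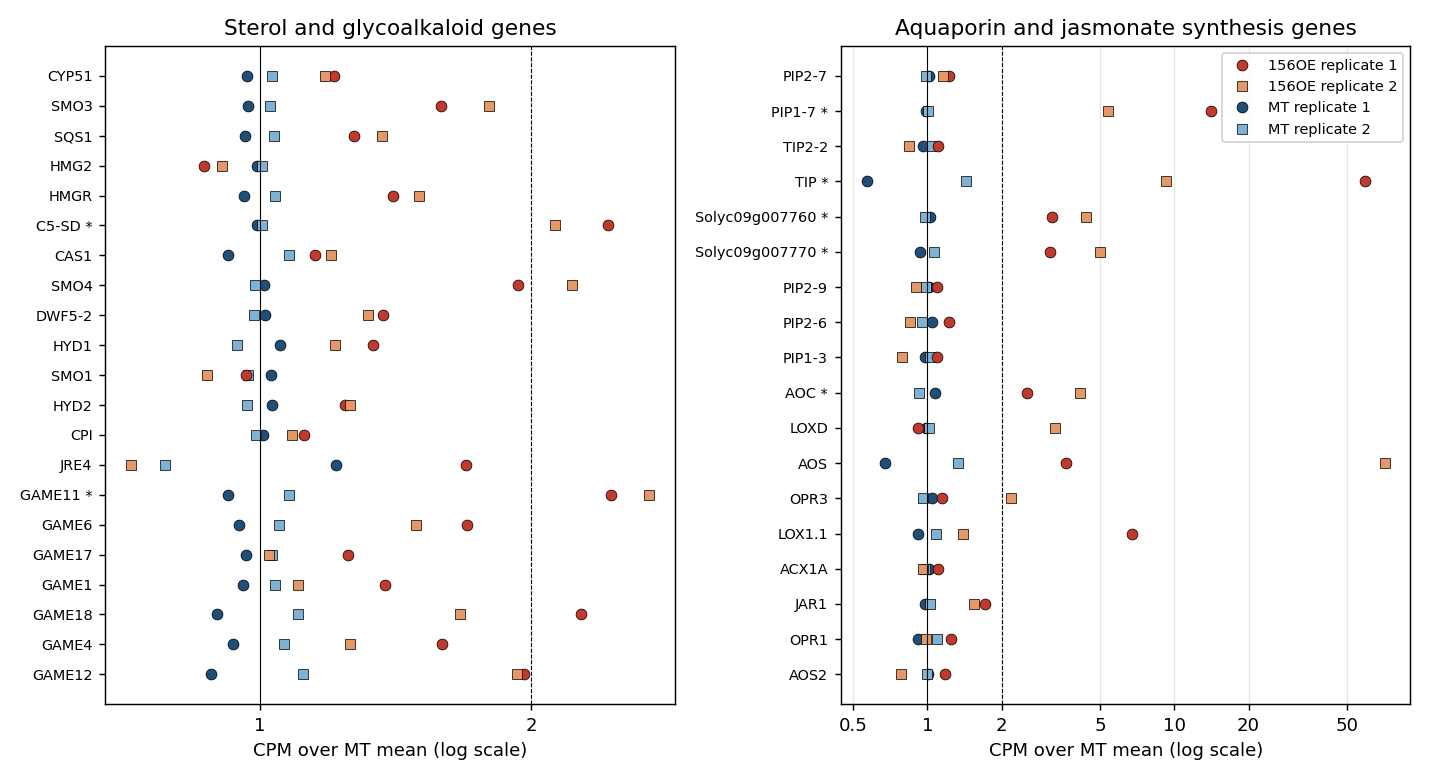
CPM of each library divided by the MT mean of the gene (log scale), for genes that averaged at least 10 CPM. Sterol and glycoalkaloid genes are on the left. Aquaporin genes and the jasmonate synthesis list, which includes the 9-lipoxygenase gene LOX1.1, are on the right. Asterisks mark members, the solid line is the MT mean and the dashed line 2 times that mean; in sterol and glycoalkaloid genes the 156OE symbols mostly sit a little right of the MT symbols, while aquaporin and jasmonate genes spread from the MT range to far right of it.

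In jasmonate synthesis 1 gene was a member. AOC (Solyc02g085730), which encodes allene oxide cyclase, had 377 and 622 CPM in 156OE, against 161 and 138 CPM in MT, a ratio of means of 3.34. Several listed genes encode the preceding enzyme, allene oxide synthase. AOS (Solyc04g079730) missed the floor in 1 library, at 6.75 and 132 CPM in 156OE and 1.25 and 2.45 CPM in MT. AOS2 (Solyc11g069800), at a higher level in MT, overlapped, with 49.1 and 32.6 CPM in 156OE and 42.1 and 41.4 CPM in MT. AOS3 (Solyc10g007960) was above MT at a low level, with 3.91 and 4.15 CPM in 156OE and 0.446 and 0.107 CPM in MT. Of 9 synthesis genes averaging at least 10 CPM, 5 had both 156OE libraries above both MT libraries. JAR1 (Solyc10g011660), which joins jasmonate to isoleucine, had 27.6 and 24.9 CPM in 156OE and 15.7 and 16.5 CPM in MT. The lipoxygenase gene LOXD (Solyc03g122340) had 363 and 1301 CPM in 156OE and 391 and 401 CPM in MT, so only 156OE replicate 2 was above MT.

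Among the genes for proteins that jasmonate induces, 5 of 14 were members, against 0.364% of the genes averaging at least 10 CPM. Of these 5, TD2 and MCPI were on the list at first, and the other 3 were put on it after values were seen. TD2 (Solyc09g008670), a threonine deaminase that acts against insects in the gut, had 122 and 65.3 CPM in 156OE, against 9.55 and 6.62 CPM in MT, a ratio of means of 11.6. MCPI (Solyc07g007250), which encodes an inhibitor of metallocarboxypeptidases, had 34.6 and 30.3 CPM in 156OE and 9.55 and 5.55 CPM in MT. That the 156OE libraries of both genes lay apart from MT follows from the rule.

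The remaining 3 had IDs at the places of proteinase inhibitor genes, where the symbols cannot be given to single IDs. Solyc03g020040, at the place of CEVI57, had 36.3 and 62.3 CPM in 156OE and 4.90 and 7.10 CPM in MT. Solyc09g084450 and Solyc09g084490, at the place of PIIF, a wound-induced proteinase inhibitor gene, had 33.3 and 55.0 CPM and 51.3 and 20.4 CPM in 156OE, against 9.07 and 9.27 CPM and 7.45 and 6.67 CPM in MT. Not every gene on the list went this way: LEMIR (Solyc03g098710), for a miraculin-like protein, had 38.8 and 7.71 CPM in 156OE, against 163 and 129 CPM in MT. Across the 13 listed genes averaging at least 10 CPM, 7 had both 156OE libraries above both MT libraries and 2 had both below. Of all 13169 genes at that level, 15.3% were above and 31.4% below.

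Regulators of the jasmonate response were unequal between the 156OE libraries. JAZ2 (Solyc12g009220), a repressor that jasmonate itself induces, had 34.6 and 279 CPM in 156OE and 28.7 and 19.4 CPM in MT. Summed over the 6 signalling genes of the list, the level was 224 and 1012 CPM in 156OE and 230 and 210 CPM in MT, so it was 156OE replicate 2 that stood out. For 3 stress transcription factor genes the sums were 19.4 and 217 CPM in 156OE and 51.7 and 34.9 CPM in MT. The part of this library difference in the levels of AOC and the induced proteins was not tested.

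A pair of members encode proteins of the kind that accumulate in drying seeds or under drought. ER5 (Solyc01g095140), an ethylene-responsive gene for a late embryogenesis abundant protein, had 22.5 and 212 CPM in 156OE, against 2.23 and 1.07 CPM in MT, which rest on 25 and 10 reads. DHN (Solyc04g082200), a dehydrin gene, had 66.4 and 121 CPM in 156OE, against 12.1 and 10.5 CPM in MT. For ER5 the ratio of means was 71.0 and came mostly from 156OE replicate 2, while for DHN it was 8.30 with less of a gap between the libraries. On this list, which was written after values were seen, 2 of 6 genes were members, against 0.364% of the genes averaging at least 10 CPM. Among the others, ASR1 (Solyc04g071610), for another protein of water stress, had 2.61 and 4.75 CPM in 156OE and 2.23 and 4.59 CPM in MT.

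The last 3 named members belong to no common class. TSW12 (Solyc10g075110) encodes a lipid transfer protein known from salt-stressed and germinating plants, and other such genes lie on the same chromosome, so the name is uncertain. It had 90.7 and 18.4 CPM in 156OE, against 2.499 and 1.28 CPM in MT. EXPA4 (Solyc09g010860), for an expansin, which loosens cell walls, had 50.1 and 82.5 CPM in 156OE, against 23.7 and 21.5 CPM in MT. GAST1 (Solyc02g089350), a gene known for its induction by gibberellin, had 16.4 and 19.6 CPM in 156OE, against 7.85 and 6.95 CPM in MT, a ratio of means of 2.43 at a low level.

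**Figure D3:**
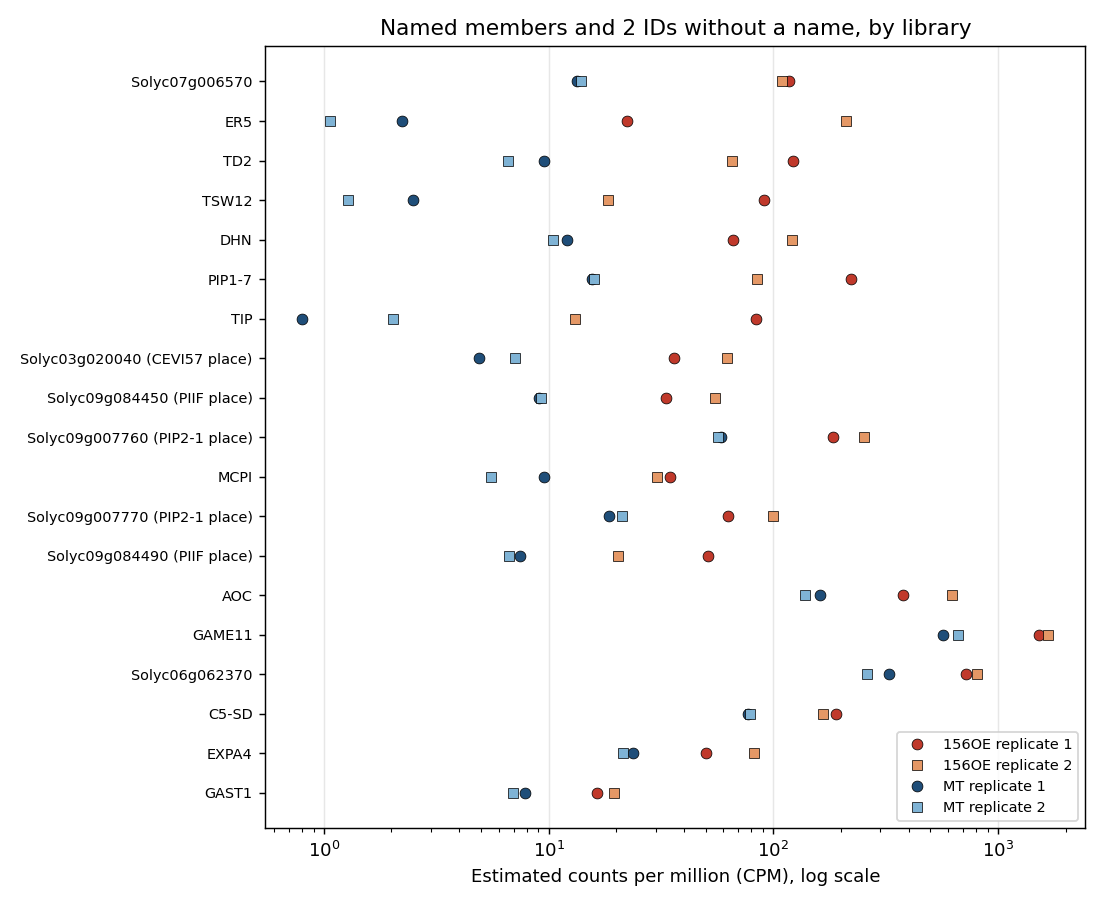
CPM on a log axis of the 17 named members and of 2 members without a name, 1 row per gene and 1 symbol per library (156OE in red and orange, MT in dark and light blue). In every row both 156OE symbols lie right of both MT symbols, as the rule requires, and the gap between the 156OE symbols is wide for ER5, TIP and TSW12 and narrow for GAME11 and C5-SD.

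Of the 40 members without a name, 2 are given by ID. Solyc07g006570 had the largest ratio once 1 CPM was added to both sides, at 117 and 110 CPM in 156OE, against 13.3 and 13.98 CPM in MT. Solyc06g062370 had the highest lower 156OE level, at 725 and 804 CPM in 156OE, against 329 and 261 CPM in MT. In both the 156OE libraries were close to each other. For the 40 unnamed members the ratio ran between 2.03 and 8.85 with a median of 2.45. Of them, 28 averaged under 10 CPM in MT, and 24 were higher in 156OE replicate 2 and 16 in replicate 1.

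The 156OE libraries were further apart in members than in other genes at the floor. The rule used the values of both libraries, so this contrast is a description and nothing is read from it. The larger 156OE value was 1.46 times the smaller in the median member and 1.1996 times in the median of the 12104 other genes. In MT the same ratio of the larger to the smaller library was 1.16 for members and 1.08 for the others. Members were also at lower MT levels, with a median of 7.55 CPM against 42.4 CPM in the others. The part of level in these ratios was not tested. The 156OE libraries were 2-fold or more apart in 9 members, 15.8%, and in 4.10% of the others. Of these 9 members, 3 were higher in 156OE replicate 2 and 6 in replicate 1. At the extreme, a member without a name had 11.8 and 188 CPM in 156OE, against 1.34 and 0.747 CPM in MT. At the even end, 24 members had 156OE values less than 1.3 times apart, among them GAME11, C5-SD, MCPI, GAST1 and Solyc07g006570.

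Replicate 2 of 156OE was the higher library in 34 of the 57 members, 59.6%, while it was higher in 29.6% of the other genes at the floor. The median ratio of replicate 2 to replicate 1 was 1.05 in members (quartiles 0.803 and 1.54), against 0.888 in the others. The rule used these same values, so both contrasts are a description. Taken alone, 156OE replicate 2 had 670 genes at 10 CPM and 2 times the higher MT library, and 613 of them did not reach this in replicate 1. For 256 of the 670, replicate 1 was at or below the lower MT library. Replicate 1 alone had 139 such genes, of which 82 did not reach it in replicate 2. The member with the fewest reads had 18 in 156OE replicate 2, or 10.7 CPM, with an exact Poisson 95% interval of 6.33 to 16.9 CPM that covers counting error only, and its higher MT value was 1.60 CPM.

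**Figure D4:**
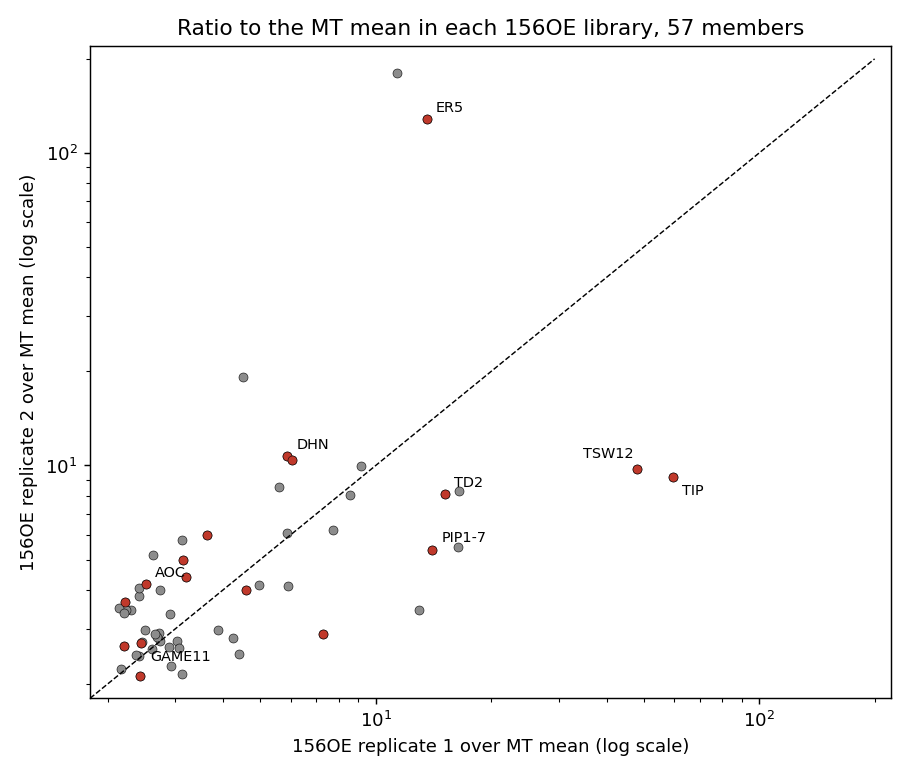
Ratio of 156OE replicate 2 (vertical) and replicate 1 (horizontal) to the MT mean, both on log scales, for the 57 members, with named members in red and the dashed line marking equal ratios. ER5 lies far above the line and TSW12 and TIP far below it, while most members cluster near it at low ratios.

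Neighbours were taken in the order of the ID numbers on each chromosome, which was not checked against coordinates; the order of the deposited files gave the same counts. Of the 57, 4 were next to another member, 7.02% (exact 95% binomial interval 1.95 to 17.0%, counting error only), in 2 runs of 2. Among genes that are no members, 0.324% were next to a member, and among the 35 genes lowered by the mirrored rule (0.274% of the 12758 genes at 10 CPM in both MT libraries) 2 were next to each other, 5.71%. Within 5 places there were 6 members with another, in 3 runs. Neighbouring genes can share sequence and therefore reads, so these are not independent observations.

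The pair on chromosome 7 was Solyc07g006570 and the ID just before it, which had 101 and 70.6 CPM in 156OE, against 16.3 and 18.0 CPM in MT. On either side the 156OE and MT values overlapped: the ID before the pair had 5.09 and 3.56 CPM in 156OE and 4.20 and 3.42 CPM in MT. The ID after the pair had 26.7 and 21.4 CPM in 156OE and 26.6 and 32.1 CPM in MT. Before the aquaporin pair on chromosome 9 lay an ID with 8.41 and 4.75 CPM in 156OE and 4.28 and 2.45 CPM in MT, where both 156OE values were above MT by a narrow margin, and after the pair lay an ID with no reads in any library.

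The third stretch, on chromosome 9, held the IDs at the PIIF place, with members at its first and last places, 4 apart. Between them the levels did not go one way. Solyc09g084470, another ID at that place, had 190 and 197 CPM in 156OE, against 426 and 346 CPM in MT, so it was lower in 156OE. The ID after it had 562 and 395 CPM in 156OE and 314 and 274 CPM in MT. Reads of these IDs were divided between transcripts, as their read numbers were not whole, so the levels of single IDs are uncertain.

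Next to Solyc03g020040 on chromosome 3, the ID just before had the same pattern at a lower level. It had 8.36 and 11.3 CPM in 156OE, against 1.08 and 1.54 CPM in MT, and so missed the floor in replicate 1. The IDs after Solyc03g020040 did not go one way. At 2 places after it, Solyc03g020060, also at the CEVI57 place, had 0.238 and 0 CPM in 156OE and 0.0904 and 0.111 CPM in MT. At 3 places after it, an ID was lower in 156OE, with 0.273 and 0 CPM against 3.90 and 9.44 CPM in MT. At 4 places after it, an ID had 22.5 and 2.97 CPM in 156OE, against 7.94 and 7.10 CPM in MT. Beyond members, 15 of the 70 neighbouring genes with enough counts to be tested, 21.4%, had both 156OE libraries above both MT libraries, where 16.2% of all 18385 tested genes did.

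**Figure D5:**
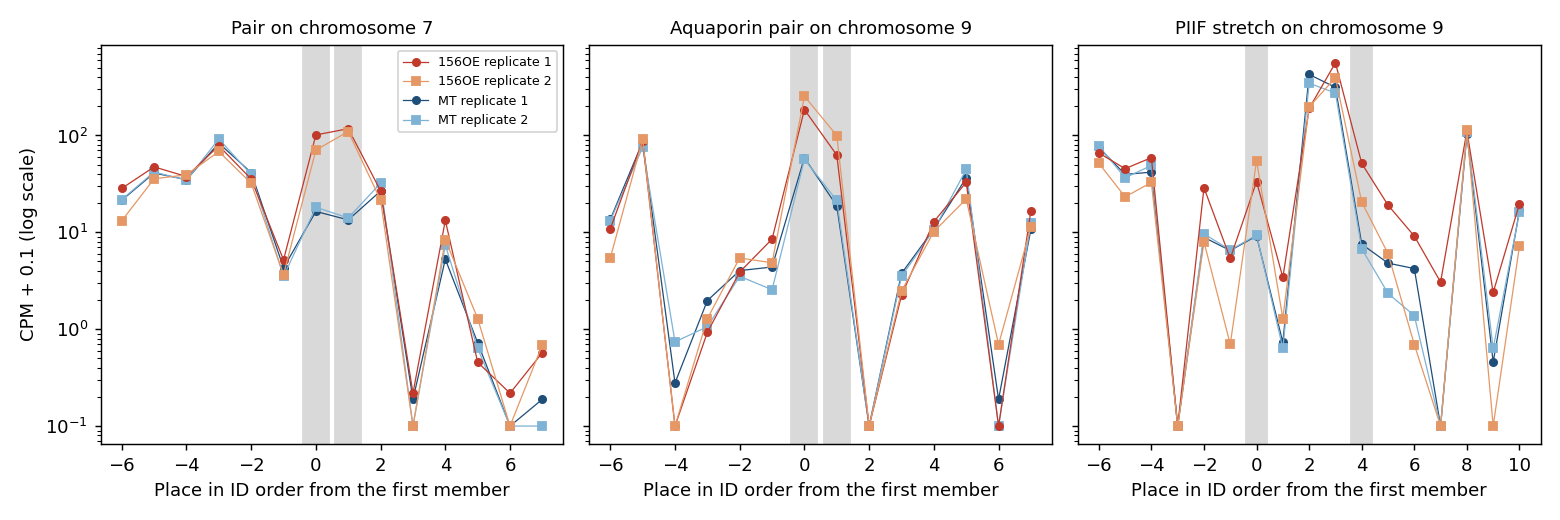
Level of each gene (CPM plus 0.1, log scale) against its place in ID order counted from the first member, for 3 stretches with members within 5 places of each other; gray bands mark members and lines join the places of 1 library. In the first and second stretches the 156OE lines lie above the MT lines at the members and near them outside, and in the third a gene between the members is lower in 156OE.

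By chromosome, the share of members among genes at the floor was highest on chromosome 9, with 9 of 879, 1.02%, and next on chromosome 12, with 7 of 759, 0.922%. Chromosome 3 had 8 of 1290, 0.620%. Chromosome 5 had 0 members of 807 genes at the floor.

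Members were shorter than other genes at the floor. Their deposited transcript length had a median of 1237 bases (quartiles 932 and 1672), against 1669 bases in the others (quartiles 1149 and 2346). Of the 57, 19 were under 1000 bases, 33.3%, where 17.4% of the others were. The 35 genes lowered by the mirrored rule had a median of 1408 bases, and 11 of them, 31.4%, were under 1000. The share of genes meeting the rule was 0.939% under 750 bases and 0.115% at 2000 bases or more. Over all genes at the floor, the median log2 ratio of 156OE to MT also moved with length, from 0.11 under 750 bases to -0.20 at 2000 bases or more. The part of this in the members' lengths was not tested.

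Most members were at low levels in MT. Their mean MT level had a median of 7.55 CPM, against 42.4 CPM in the other genes at the floor, and their mean 156OE level one of 34.5 CPM, against 40.4 CPM in the others. In 35 members, 61.4%, neither MT library reached 10 CPM, as in 0.826% of the others. The rule sets a limit on the MT level of members, so these contrasts in MT follow in part from the selection. At the upper end 6 members averaged at least 50 CPM in MT, among them GAME11, AOC, C5-SD and Solyc09g007760. Nearly all members, 52 of 57, had at least 1 read number that was not whole, which marks reads divided between transcripts, as did 97.9% of the others.

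Markers of other tissues were examined beside these results. Summed over 7 leaf and photosynthesis genes the level was 1767 and 1487 CPM in 156OE, against 1310 and 1385 CPM in MT. The genes did not go one way. Of the 6 averaging at least 10 CPM, 2, RBCS-3B and RBCS-2A, had both 156OE libraries above both MT libraries, where 15.3% of the 13169 genes did. The rest overlapped. Of these, CAB4 (Solyc07g047850) had 405 and 158 CPM in 156OE, against 352 and 395 CPM in MT. For 3 trichome terpene genes the sums were 6.22 and 14.9 CPM in 156OE and 3.44 and 2.90 CPM in MT, and for 2 pollen genes 1.66 and 1.19 CPM in 156OE and 6.16 and 4.70 CPM in MT. The pollen marker LAT52 (Solyc10g007270) had 0 CPM in both 156OE libraries, against 0 and 0.107 CPM in MT, so it was near 0 in every library. No gene of these 3 lists was a member, where 0.364% of the genes averaging at least 10 CPM met the rule. No trichome terpene or pollen gene reached 10 CPM in both 156OE libraries, so none of them could meet it. With so few genes that could, nothing is read from this absence. The part of these tissues in the members' levels was not tested.

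In the fit across all genes, edgeR's quasi-likelihood test called 1 of the 57 members higher in 156OE, where 0.00544% of the 18385 genes tested were called higher. DESeq2 called 50 of the 57, where it called 0.703% of 20628 genes. Because the members were chosen on the same contrast, nothing is read from these counts. On library sizes scaled by TMM, the split of the 13169 genes with non-overlapping genotypes was 23.1% above and 24.4% below MT, where it was 15.3% above and 31.4% below in plain CPM. In TPM it was 9.92% above and 42.0% below. All 57 members kept both 156OE libraries above both MT libraries under TMM, under DESeq2 size factors and in TPM. The ratio of 2 in the rule made this nearly certain, so nothing is read from it. The rule itself was still met by 56 of the 57 under TMM, 56 under DESeq2 size factors and 42 in TPM.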

How the data were processed

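Estimated counts per transcript and TPM values were deposited by the authors as Salmon tables of 33976 transcripts, 1 per gene ID, with transcript lengths, per the file headers. The submitters' processing notes also name Trimmomatic, HISAT2, Picard and SAMtools, and the build and gene annotation used are not given in the sources here. CPM was computed from the estimated counts and their library sum, without normalization between libraries. For the whole-table fit, estimated counts were rounded and tested with edgeR 4.0.16 (quasi-likelihood, two-sided, TMM, filterByExpr, genotype as the only term, Benjamini-Hochberg at 0.05) in R 4.3.3, and with DESeq2 1.42.0 as an alternative. The fit was tested on simulated data. With 2 libraries against 2, the smallest p of an exact permutation test is 0.333, and no such test was run. A list's counts of libraries above or below cover its genes averaging 10 CPM over the 4 libraries, and its median is of log2 ratios of mean CPM plus 1.

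Members and lists were chosen with earlier results of these data known. Symbols were recalled from published nomenclature and kept if the RefSeq table (assembly SLM_r2.1) had them on the same chromosome at a like relative place (within 0.03). Of 176 pairs of ID and symbol, 101 written at first and 35 added after values were seen passed, 4 failed, and the rest had no symbol in the table or no ID in the files. GAME11 is a synonym of the symbol gad2 there. All named members are given, and of IDs without a name the one with the largest ratio and the one with the highest lower 156OE level, plus IDs at shared symbols. Sequences were not used here.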

Additional observations from a re-analysis of the deposited data

How the results depend on the processing

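The number of genes meeting the rule was 57 and stayed within 1.5 times of that on TPM (62, of which 42 were shared), TMM-scaled CPM (63, 56 shared) and CPM on DESeq2 size factors (64, 56 shared). It was 88 with a floor of 5 CPM, 31 with a floor of 20 CPM, 460 with no floor, 152 at a ratio of 1.5 and 22 at a ratio of 3. Without single libraries it ran between 82 and 670, and the larger counts followed from leaving out 156OE replicate 1 (670) or 156OE replicate 2 (139). Chosen on TPM, the genes had a median length of 876 bases and 80.6% of them had a read number that was not whole, against 91.2% in CPM. At a ratio of 3, 10 of the 17 named members were left. The share of members next to another member ran between 7.02% and 11.1% over the windows, orders and ID sets tried.

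Counts of genes with both 156OE libraries above both MT libraries were also taken on TMM-scaled CPM. They were 7 of 8 glycoalkaloid genes, 11 of 13 sterol genes with 0 below and 6 of 9 aquaporin genes. On the jasmonate synthesis list, with LOX1.1, it was 7 of 9 genes, and 8 of 13 jasmonate-induced genes. Of all 13169 genes, 23.1% were above on this scale, where 15.3% were in plain CPM. HMG2 and SMO1 then overlapped MT. In TPM, 5 of the 8 glycoalkaloid genes had both 156OE libraries above both MT libraries, where 9.92% of the 13169 genes did.

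Over the whole table edgeR called 1 gene, DESeq2 208 and edgeR with no low-count filter 85. With the replicate number as a block edgeR called 0 genes (1320 at an unadjusted p under 0.05, lowest adjusted p 0.0959). The labels do not say that a number is shared by design, and deviations of same-numbered libraries correlated at -0.251 over 18385 genes. A crossed replicate block, added after seeing the data, also gave 0 (1920 unadjusted, lowest adjusted p 0.108). Without single libraries the count ran between 0 and 1998, and was 0 without either MT replicate (498 and 425 unadjusted). The cause of these changes was not tested. Depth in 156OE replicate 2, at 16.9 reads for 10 CPM, limits the precision of every member near the floor.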

Other observations

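Genes of flavonoid and anthocyanin synthesis held no member, where 0.364% of the 13169 genes averaging at least 10 CPM met the rule. Of the 6 listed genes at that level, 4 had both 156OE libraries above both MT libraries and 1 had both below. Of all 13169 genes, 15.3% were above and 31.4% below. Among the 4, F3H (Solyc02g083860) and CHS1 (Solyc09g091510) were above by a small margin, with ratios between the nearest libraries of 1.08 and 1.099. DFR (Solyc02g085020), for dihydroflavonol reductase, had 32.0 and 48.9 CPM in 156OE, against 15.8 and 21.3 CPM in MT. ANS (Solyc08g080040), for anthocyanidin synthase, had 22.7 and 32.6 CPM in 156OE, against 9.997 and 13.4 CPM in MT. In both genes 156OE replicate 2 was the higher library. Of 5 cell wall genes averaging at least 10 CPM, 3 had both 156OE libraries above both MT libraries and 0 below, where 15.3% and 31.4% of all did. Beside EXPA4, these were the expansin genes EXP18 (Solyc06g076220), at 175 and 255 CPM in 156OE and 130 and 129 CPM in MT, and EXP2 (Solyc06g049050), at 24.6 and 16.6 CPM in 156OE and 9.48 and 8.64 CPM in MT. The expansin gene EXP5 (Solyc02g088100), at 35.6 and 76.6 CPM in 156OE and 41.1 and 35.6 CPM in MT, overlapped. So did the pectin methylesterase gene PMEU1 (Solyc03g123630), at 398 and 279 CPM in 156OE and 272 and 293 CPM in MT.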
